A study of Mus musculus with 56 samples.

Results

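DBA/2J and C57BL/6J mice were compared gene by gene in prefrontal cortex and in nucleus accumbens, and the genes kept were those that differed by at least 1 log2 unit (2-fold) in the same direction in both regions. Of 10684 features measured, 102 met that rule: 47 were higher in DBA/2J and 55 were lower. A feature here is a gene, represented by its brightest probe set, or a probe set that has no gene symbol. The 102 members comprised 63 named genes and 39 unnamed probe sets.

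The data were 56 expression arrays of inbred mouse strains, 29 from prefrontal cortex and 27 from nucleus accumbens, and 27 strains had both regions. Each array carried RNA from 1 pool of 3 male mice aged 8 to 10 weeks that had been habituated and given no named treatment, and both regions were cut from the same brains. The comparison therefore rested on 4 arrays, 1 for each strain in each region: DBA/2J cortex, C57BL/6J cortex, DBA/2J accumbens and C57BL/6J accumbens. Neither strain was set as a control, and no genotype other than the strain itself was named. With 1 pool per strain, a strain difference and a difference between those pools cannot be told apart, and the 2 regions are not independent samples of a strain. The tissue was bulk, so fewer cells of a type and less RNA per cell cannot be told apart either.

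C57BL/6J and DBA/2J are the parents of the BXD recombinant inbred panel and are used widely in alcohol and drug research, because C57BL/6J mice drink ethanol readily and DBA/2J mice avoid it. Prefrontal cortex is rich in glutamatergic projection neurons, while nucleus accumbens is made up largely of GABAergic medium spiny neurons that receive dopamine input. Many expression differences between inbred strains are known to follow inherited variants in or near the gene itself.

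The 6 measured genes chosen to define cortex were brighter in cortex, and the 7 chosen to define accumbens were brighter in accumbens, in both strains. On the fuller cell type lists, 12 of 15 cortical excitatory genes were brighter in cortex in both strains (not Cux1, Tle4 and Bcl6) and 20 of 21 spiny neuron genes were brighter in accumbens (not Strn4). The vesicular glutamate transporter gene Slc17a7 read 9.88 in DBA/2J and 10.1 in C57BL/6J cortex against 3.76 and 2.93 in accumbens. Drd1, the D1 dopamine receptor gene, read 6.18 and 6.24 in cortex against 11.08 and 11.07 in accumbens. These and all values below are log2 of the deposited intensities; on the linear scale the 4 array medians over all probe sets lay between 9.85 and 10.43. The 3' minus 5' difference of the actin control probe sets, a sign of RNA quality, was 1.31 in C57BL/6J cortex, the lowest of the 27 cortex arrays, and 1.91 in DBA/2J cortex, while the accumbens values were 1.7 and 1.85. Before any result, some resemblances between arrays have to be named. The library labelled C58/J cortex resembled DBA/2J cortex, 1 of the 4 arrays compared. Their correlation was 0.38 across 10684 features, after centring each feature on the strains of its region. C58/J cortex correlated less with its own accumbens array (0.26) and with that of DBA/2J (0.31). Its correlation with C57BL/6J cortex, another of the 4 arrays, was 0.29. Nucleus accumbens was for that reason taken as the cleaner region when the strains were placed. It was not free of doubt: C57BL/6J accumbens correlated most with C3H/HeJ accumbens (0.34), above its relatives C58/J (0.27) and C57BR/cdJ (0.26).

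The members were a small part of the table, 0.44% of features on the higher side and 0.515% on the lower side. A difference of 1 log2 unit or more in either direction was seen for 327 features in cortex (3.06%) and for 282 in accumbens (2.64%). The members were 31.2% of the first group and 36.2% of the second. No feature passed 1 unit in both regions with opposite signs. Of the 282 features past 1 unit in accumbens, 254 had the same sign in cortex (90.1%), and of the 327 in cortex, 251 had the same sign in accumbens (76.8%). Across all features the sign matched in 60.3%, and the typical difference was small, with a median absolute size of 0.20 in cortex and 0.16 in accumbens. The same 2 pools of mice lie behind both axes, so the agreement of the regions covers the arrays and the tissue but not the animals.

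**Figure D1:**
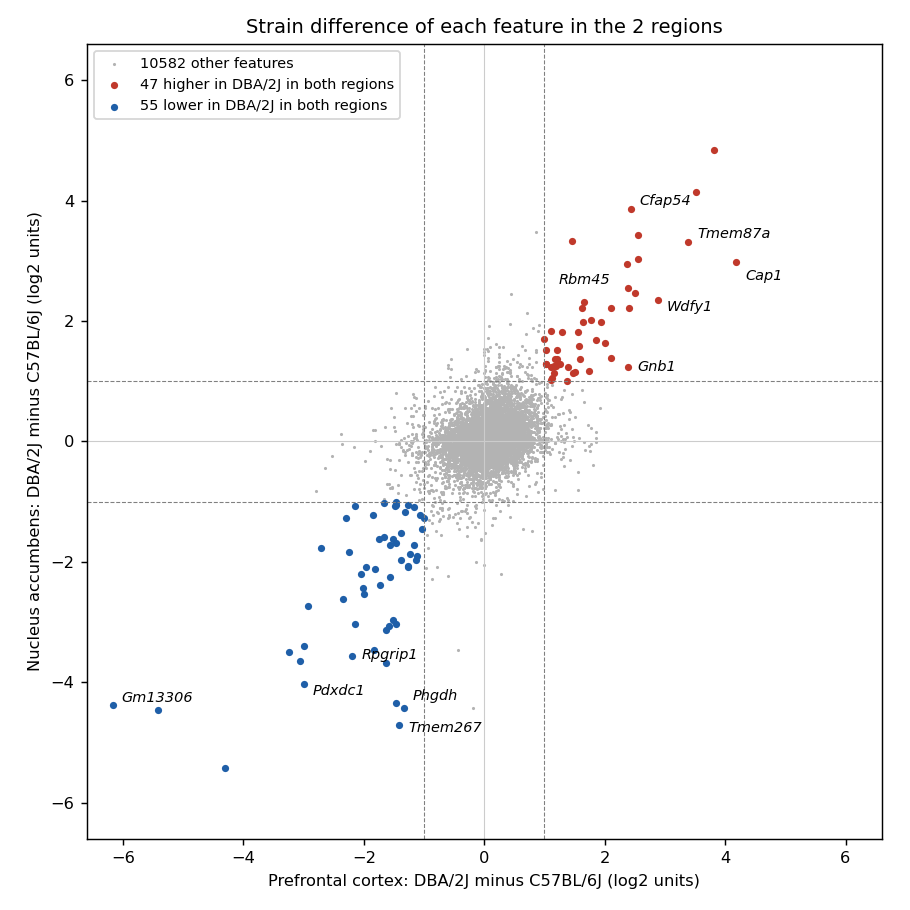
DBA/2J minus C57BL/6J in prefrontal cortex (horizontal axis, log2 units) against the same difference in nucleus accumbens (vertical axis, log2 units), 1 point per feature, with dashed lines at 1 unit. The 47 members higher in DBA/2J fill the upper right and the 55 lower members the lower left, while the opposite corners past 1 unit are empty.

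The median member difference was 1.59 in cortex and 1.68 in accumbens on the higher side, and -1.63 and -2.08 on the lower side. The accumbens difference was the larger of the pair in 29 of 47 higher and 38 of 55 lower members. An error for each mean difference came from a limma model of strain and region over 54 arrays, in which the spread of strain by region is the only error available. These standard errors ran from 0.16 to 0.80 among members with a median of 0.34, against 0.20 over all features. By that model 126 features were higher in DBA/2J (1.18%) and 88 were lower (0.824%) at an adjusted p under 0.05. Of the 214, 91 were members (44 higher, 47 lower), a count the choice of members on the same contrast largely fixes, and the other 123 had a median absolute difference of 0.79.

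Many members were dim in the lower strain. Values under log2 5 were taken as too dim to be ordered and were treated as a bound by raising them to 5. The differences then still passed 1 unit in both regions for 29 higher and 34 lower members. All 4 arrays were above log2 5 for 19 higher and 16 lower members, and the brighter strain was above it in both regions for 43 and 51. Folds quoted below as "at least" come from values raised this way. Nearest to the threshold, Zmym1 lay just inside at 1.003, followed by 6820431F20Rik at 1.004 and Crim1 at 1.007, while Stk25 at 0.961, Sesn3 at 0.965 and Stard3nl at 0.968 lay just outside; each value is the smaller of a gene's 2 absolute differences.

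**Figure D2:**
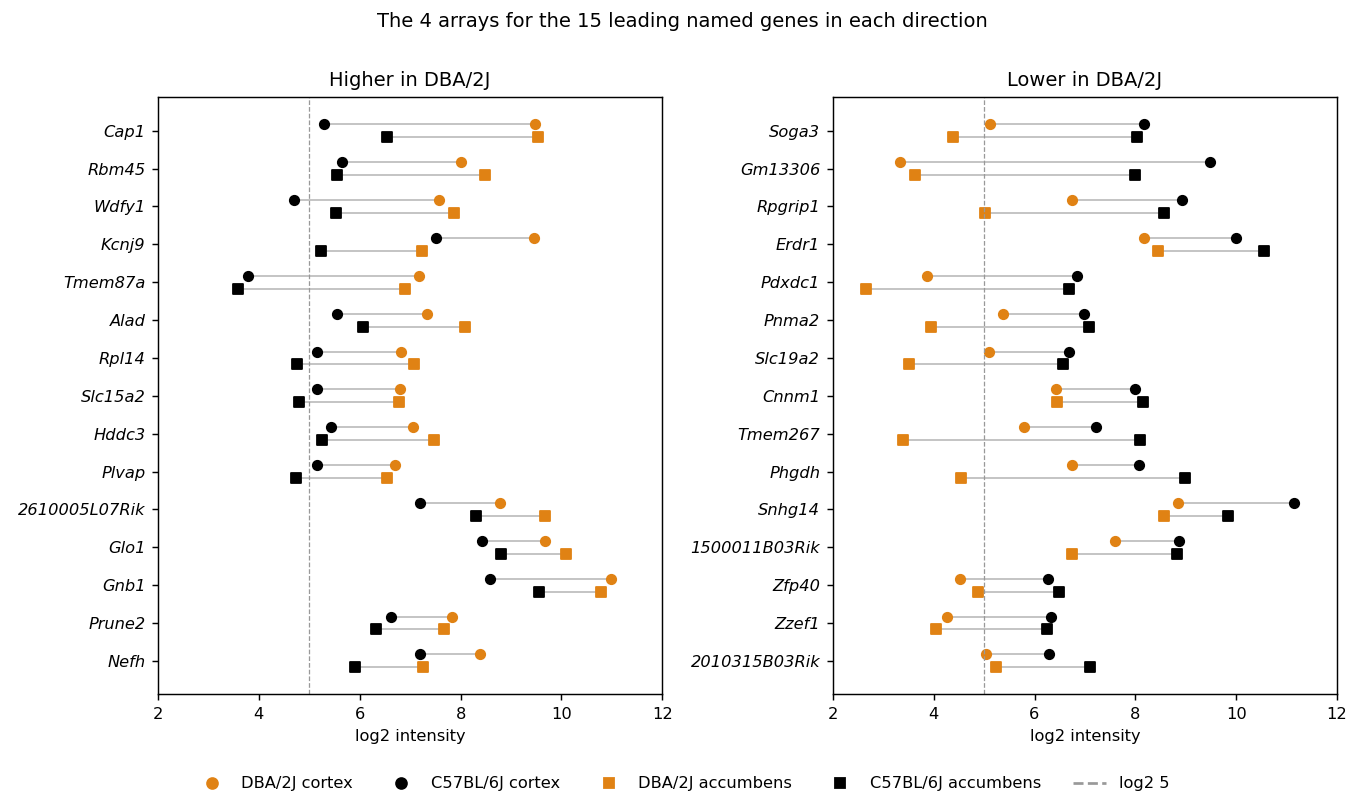
Log2 intensity on the 4 arrays for the 15 leading named genes in each direction, ordered by the smaller regional difference after values below log2 5 were raised to 5. Circles are cortex, squares accumbens, orange DBA/2J and black C57BL/6J, and the dashed line marks log2 5; the orange and black symbols keep the same order in both regions for every gene shown.

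Among the genes of neuronal signalling that were higher in DBA/2J, Kcnj9 encodes the GIRK3 subunit of the potassium channels opened by G protein coupled receptors. Kcnj9 read 9.46 in DBA/2J and 7.52 in C57BL/6J cortex, and 7.23 and 5.24 in accumbens. The strain differences were 1.94 and 1.99 log2 units, or 3.84-fold and 3.98-fold, with a mean of 1.97 (SE 0.34). Cortex lay above accumbens in both strains, and the strain gap was nearly the same in each. The other measured channel subunit of this family, Kcnj3, differed by 0.26 (SE 0.36, limma adjusted p = 0.91).

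Gabra2, the alpha2 subunit of the GABA-A receptor, has an intronic variant in C57BL/6J that is known to lower its expression. It read 8.22 in DBA/2J and 6.75 in C57BL/6J cortex, and 9.46 and 8.32 in accumbens, a mean difference of 1.30 (SE 0.22). C57BL/6J was lowest of 27 strains in cortex and second lowest in accumbens, where all other strains but 1 were nearer DBA/2J. Of the 9 GABA-A subunit genes measured, Gabra2 was the only one past the limma threshold. Gabrb2, the beta2 subunit, went the other way without passing, at 9.49 and 10.55 in cortex and 8.30 and 9.14 in accumbens (mean difference -0.95, SE 0.33, adjusted p = 0.19).

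Gnb1, a beta subunit of heterotrimeric G proteins, was the brightest of the leading higher genes. It read 10.98 in DBA/2J and 8.59 in C57BL/6J cortex, a 5.23-fold difference, and 10.78 and 9.55 in accumbens, a 2.35-fold difference (mean 1.81, SE 0.26). Scg5, whose product 7B2 is a chaperone of the proprotein convertase PC2, was as bright, at 11.05 and 9.90 in cortex and 11.17 and 9.91 in accumbens. Per3 of the circadian clock read 6.22 and 5.07 in cortex and 6.55 and 5.42 in accumbens. Mpp3, a membrane scaffold of the MAGUK family, read 7.76 and 6.63 in cortex and 7.58 and 6.54 in accumbens. For all 4 of these genes each DBA/2J array was above both C57BL/6J arrays, and the differences of Scg5 and Mpp3 were nearly equal in size between regions.

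Metabolic enzymes included 2 genes whose copy number is known to be higher in DBA/2J. Glo1, glyoxalase 1, clears methylglyoxal and lies in a segment that is duplicated in DBA/2J; it read 9.68 against 8.43 in cortex and 10.10 against 8.81 in accumbens. That is 2.37-fold and 2.45-fold, with a mean difference of 1.27 log2 units and the smallest standard error among members (0.16). Alad makes porphobilinogen in haem synthesis and is also duplicated in DBA/2J; it read 7.34 against 5.55 in cortex and 8.08 against 6.07 in accumbens, or 3.44-fold and 4.04-fold (mean 1.90, SE 0.24). Of 6 haem synthesis genes measured, Alad alone passed the limma threshold, and the others differed by 0.05 to 0.27. Of 16 glyoxalase and glutathione genes, Glo1 alone passed, with a list median of -0.02 against 0.06 over all features.

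Further enzymes were on the higher side. Hddc3, a phosphohydrolase of the HD domain family, read 7.06 against 5.42 in cortex and 7.48 against 5.26 in accumbens. Adi1 of the methionine salvage pathway read 7.45 and 6.42 in cortex and 8.44 and 6.92 in accumbens. Nudt16, a nucleotide hydrolase, Dgke, a diacylglycerol kinase, Rdh13, a retinol dehydrogenase of mitochondria, Pla2g4e, a cytosolic phospholipase, and Cyp4x1, a cytochrome P450 found in brain, had C57BL/6J below log2 5 in at least 1 region, and none of the 5 passed 1 unit in both regions once dim values were raised. Their differences as deposited lay between 1.10 and 1.85.

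Transport, membrane and cytoskeletal genes held some of the widest differences among the higher members. Cap1, which binds actin monomers and adenylyl cyclase, read 9.48 in DBA/2J and 5.29 in C57BL/6J cortex, and 9.53 and 6.55 in accumbens. That is 18.2-fold in cortex and 7.91-fold in accumbens (mean 3.58, SE 0.36). DBA/2J was at the level of most strains: 20 of the 25 others were nearer to it than to C57BL/6J in each region. Tmem87a, a membrane protein of the Golgi, read 7.17 and 3.78 in cortex and 6.89 and 3.58 in accumbens, so at least 4.49-fold and 3.72-fold (mean as deposited 3.35, SE 0.25). All 25 other strains lay on the DBA/2J side for this gene. Slc15a2, the peptide transporter PEPT2, read 6.80 against 5.16 in cortex and 6.77 against 4.79 in accumbens. Nefh, the heavy neurofilament subunit, read 8.38 against 7.20 and 7.26 against 5.90, but its standard error was 0.49 and its adjusted p by limma 0.267.

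Wdfy1, an endosomal FYVE and WD repeat protein, read 7.58 in DBA/2J and 4.70 in C57BL/6J cortex, and 7.87 and 5.52 in accumbens. The folds were at least 5.99 in cortex and 5.07 in accumbens (mean as deposited 2.61, SE 0.23). Rbm45, an RNA-binding protein, read 8.01 and 5.64 in cortex and 8.48 and 5.54 in accumbens, or 5.17-fold and 7.68-fold. Rpl14, a protein of the large ribosomal subunit, read 6.81 and 5.16 in cortex and 7.08 and 4.76 in accumbens; ribosomal protein genes have many near-identical copies in the genome, so which copy was read is uncertain. Of the remaining leading genes, 2610005L07Rik was higher by 1.59 and 1.37 and Prune2 by 1.20 and 1.36, with all 4 arrays above log2 5 for both.

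Plvap, which forms the diaphragms of endothelial fenestrae and caveolae, read 6.70 against 5.15 in cortex and 6.55 against 4.74 in accumbens. The 9 measured genes of the endothelial and mural list moved partly with it: 6 were higher in DBA/2J in both regions, none passed the limma threshold, and the list mean was 7.20 against 6.95 in cortex and 6.95 against 6.86 in accumbens. Their part in the Plvap result was not tested. The other named higher members were Cuedc1, A2ml1, 6820431F20Rik, Zfp949, Lsm12, Arhgef15, Dph7, Cfap54, Pcdhb3, 4930570G19Rik and Zfp458. Cuedc1, A2ml1 and 6820431F20Rik kept 1 unit in both regions with dim values raised, and the other 8 did not. Cuedc1, a protein with a ubiquitin-binding CUE domain, read 6.49 and 4.76 in cortex and 6.27 and 5.10 in accumbens.

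On the lower side, 2 of the 3 chains of complement C1q were members. C1q starts the classical complement cascade, is made by microglia in brain and tags synapses for removal. C1qb read 7.12 in DBA/2J and 8.19 in C57BL/6J cortex, and 7.85 and 9.07 in accumbens (mean difference -1.15, SE 0.23). C1qc read 4.38 and 5.88 in cortex and 4.43 and 6.05 in accumbens, at least 1.85-fold and 2.07-fold lower in DBA/2J (mean as deposited -1.56, SE 0.32). C57BL/6J was the highest of 27 strains for C1qb in both regions and second highest for C1qc in both. The third chain, C1qa, read 7.11 and 7.59 in cortex and 7.29 and 7.59 in accumbens, and its difference of -0.39 (SE 0.20) did not pass (adjusted p = 0.52).

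Of the 9 microglial genes measured, 6 were lower in DBA/2J in both regions and 3 (Ctss, Aif1 and P2ry12) were higher in both. By limma, 2 were lower, C1qb and C1qc themselves, and the list median was -0.32. The list mean, which includes both of these genes, was 6.55 in DBA/2J and 6.97 in C57BL/6J cortex (8th and 25th of 27 from the lowest), and 6.98 and 7.25 in accumbens (12th and 22nd). Over the 7 genes without C1qb and C1qc it was 6.78 and 6.96 in cortex (12th and 19th) and 7.22 and 7.16 in accumbens (13th and 11th). Csf1r, the receptor microglia need to survive, read 7.97 and 8.07 in cortex and 8.69 and 8.87 in accumbens. Tyrobp, a signalling adaptor of microglial receptors, read 5.78 and 6.38 in cortex, where DBA/2J was the lowest of 27, and 6.19 and 6.79 in accumbens; its difference of -0.60 (SE 0.23) did not pass by limma (adjusted p = 0.27). Cx3cr1, the fractalkine receptor, read 6.79 and 7.31 in cortex and 7.53 and 7.64 in accumbens (mean -0.32, SE 0.18, adjusted p = 0.57). The part of microglial content in the C1q values was not tested.

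C1qb and C1qc are adjacent in the gene order of the reference table, with no listed gene between them. Since these neighbours were lower together, the 250 bases before each start site are shown. They were taken from RefSeq (GRCm38.p6, a genome assembly of C57BL/6J), minus strand, at chr4:136886201-136886450 for C1qb and chr4:136892915-136893164 for C1qc. Capitals mark GAGGAA or its reverse complement TTCCTC, the core of the sites bound by PU.1, the transcription factor that defines microglia and macrophages.
C1qb: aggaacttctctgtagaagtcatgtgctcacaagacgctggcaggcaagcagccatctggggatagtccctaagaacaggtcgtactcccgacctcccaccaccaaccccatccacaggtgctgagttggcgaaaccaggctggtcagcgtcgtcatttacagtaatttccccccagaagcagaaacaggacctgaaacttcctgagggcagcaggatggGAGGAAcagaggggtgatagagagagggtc
C1qc: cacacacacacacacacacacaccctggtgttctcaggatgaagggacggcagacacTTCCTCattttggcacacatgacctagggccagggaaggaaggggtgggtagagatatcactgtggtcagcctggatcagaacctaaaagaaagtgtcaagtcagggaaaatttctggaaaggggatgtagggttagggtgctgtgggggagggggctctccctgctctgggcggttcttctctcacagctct
The motif occurred once in each window, beginning 30 bases before the C1qb start on the gene's strand and 193 bases before the C1qc start on the opposite strand. On either strand it occurred in 7639 of 32851 promoter windows of this length (23.3%), so its presence is a description of these letters and not a site.

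Enzymes on the lower side included Phgdh, which commits glycolytic carbon to serine synthesis and in brain is made mostly by astrocytes. Phgdh read 6.75 in DBA/2J and 8.08 in C57BL/6J cortex, and 4.55 and 8.98 in accumbens. The difference was 2.53-fold in cortex and at least 15.7-fold in accumbens, with a standard error of 0.70 on the mean of -2.88. That size belongs to the brightest probe set: the 3 others differed by -0.55, -0.10 and -0.12 in cortex and by -1.30, -0.67 and -0.79 in accumbens, and the value over every probe set was -0.69. The 12 astrocyte genes did not go the same way: their mean was 8.35 against 8.11 in cortex and 7.79 against 7.73 in accumbens, and none passed. Pdxdc1, a protein with a pyridoxal-dependent decarboxylase domain, read 3.86 and 6.85 in cortex and 2.65 and 6.68 in accumbens, at least 3.61-fold and 3.20-fold lower. Gatm, which makes the creatine precursor guanidinoacetate, read 6.61 and 7.64 in cortex and 6.36 and 7.81 in accumbens (mean -1.24, SE 0.33). Beside Gatm, a gene active in oligodendrocytes, 10 of 12 oligodendrocyte genes were lower in DBA/2J in both regions with a list median of -0.39 and none past the threshold; the list mean was 7.72 against 7.83 in cortex and 8.86 against 9.46 in accumbens, and its part in the Gatm value was not tested.

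Nudt19, a hydrolase of coenzyme A in peroxisomes, read 6.33 and 7.59 in cortex and 6.26 and 7.32 in accumbens. Mboat2, a lysophospholipid acyltransferase, read 6.40 and 7.52 in cortex and 5.22 and 7.13 in accumbens. Acer3, an alkaline ceramidase, read 4.73 and 6.19 in cortex and 4.88 and 5.93 in accumbens, which was under 1 unit in accumbens after raising dim values. Transporters were represented by Slc19a2, which carries thiamine into cells, and Slc35a5 of the nucleotide sugar transporter family. Slc19a2 read 5.10 and 6.68 in cortex and 3.51 and 6.57 in accumbens, so 2.99-fold and at least 2.97-fold lower. Its other probe set differed by -0.21 and -0.50; the mean difference of -2.32 became -1.34 over every probe set and -0.35 without the types prone to cross-hybridisation. Slc35a5 read 8.13 and 9.29 in cortex and 7.66 and 8.75 in accumbens, and C57BL/6J was the highest of 27 strains in both. Cnnm1, of a family linked to magnesium transport, read 6.43 and 7.99 in cortex and 6.44 and 8.16 in accumbens.

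The widest mean difference of a named gene belonged to Gm13306, a predicted gene. It read 3.33 in DBA/2J and 9.49 in C57BL/6J cortex, and 3.62 and 8.00 in accumbens, at least 22.5-fold and 7.98-fold lower. Among the other 25 strains it ranged from 3.07 to 11.55 in accumbens, with 8 nearer DBA/2J, so both strains sat inside a very broad spread. Soga3 read 5.11 and 8.17 in cortex and 4.38 and 8.03 in accumbens, 8.32-fold and at least 8.15-fold lower, and 6 of 25 strains were nearer DBA/2J in accumbens.

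Rpgrip1, best known as a ciliary protein of photoreceptors, read 6.74 and 8.92 in cortex and 5.01 and 8.57 in accumbens. Here the high level of C57BL/6J was the less common one, since 21 of 25 others were nearer DBA/2J in accumbens, with a median of 5.01. It was not particular to C57BL/6J: NZW/LacJ read 8.60, C58/J 8.40, C57BR/cdJ 7.75 and C3H/HeJ 7.25 in accumbens. In cortex DBA/2J itself was 24th of 27 from the lowest, above the median of 4.05 in the 25 others. Erdr1, of the pseudoautosomal region, read 8.18 and 10.00 in cortex and 8.44 and 10.56 in accumbens. The other strains ranged from 2.40 to 11.57 in cortex and from 4.12 to 11.92 in accumbens. Pnma2, a paraneoplastic antigen gene of neurons, read 5.37 and 6.99 in cortex and 3.95 and 7.08 in accumbens. Tmem267 read 5.80 and 7.22 in cortex and 3.39 and 8.10 in accumbens. For Rpgrip1, Pnma2, Tmem267, Phgdh and Slc19a2 DBA/2J was lower in accumbens than in cortex, while C57BL/6J differed less between regions. The C58/J cortex array, which resembled DBA/2J cortex, lay between the 2 strains for all 5 genes, at 7.77, 5.45, 6.35, 7.45 and 5.35 in that order, and below its own accumbens array, at 8.40, 7.18, 7.94, 9.04 and 6.26. The part of that resemblance in the regional difference was not tested.

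Snhg14, the long noncoding host of imprinted small nucleolar RNAs, read 8.85 and 11.14 in cortex and 8.56 and 9.84 in accumbens. 1500011B03Rik read 7.60 and 8.87 in cortex and 6.74 and 8.82 in accumbens. The zinc finger genes Zfp40 and Zzef1, and 2010315B03Rik, were lower by 1.74, 2.05 and 1.24 in cortex and by 1.62, 2.20 and 1.87 in accumbens. The other named lower members were Zfp945, Crim1, Sbsn, G530011O06Rik and Zmym1, with accumbens differences between -3.04 and -1.01.

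The unnamed probe sets were 38.2% of members and 17.5% of features. Of these 39 members, 11 were higher and 28 lower. Among the widest were 1436240_at, at 4.61 and 8.92 in cortex and 3.85 and 9.27 in accumbens, and 1456182_x_at, at 6.86 and 3.05 in cortex and 7.84 and 3.00 in accumbens. With dim values raised, the first was at least 15.1-fold and 19.3-fold lower in DBA/2J and the second at least 3.63-fold and 7.17-fold higher. Probe set types prone to cross-hybridisation made up 23.5% of members and 27.5% of features.

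Placed among the other 25 strains with both regions, the 2 parents differed in which of them was unusual. A strain counts as nearer DBA/2J for a gene when its level lies past the midpoint between C57BL/6J and DBA/2J. For the higher members, a median of 20 of 25 strains were nearer DBA/2J in accumbens, and for the lower members a median of 7. At least 20 of 25 were nearer DBA/2J for 24 of 47 higher and 8 of 55 lower members, and at most 5 for 4 higher and 17 lower members. In words, where DBA/2J was higher the low level of C57BL/6J tended to be the rare one, and where DBA/2J was lower its own low level tended to be. This tally describes members chosen for their difference, and no test was made of it. The filter also bears on it, because a probe set was kept only if enough arrays were above log2 5. Taking the brightest probe set of a gene works the same way. Both steps disfavour genes whose low level is shared by most strains. The tally therefore cannot show which level is rarer in general, and the part of these steps in it was not tested.

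C57BL/6J was the lowest of all 27 strains in both regions for 13 of 47 higher members: Wdfy1, Tmem87a, Hddc3, Nefh, Cuedc1, Scg5, Adi1, Dgke, Nudt16, Rdh13, Pla2g4e, Cyp4x1 and 1426787_at. For the first 8 of these the next strain was above log2 5 in both regions; for the other 5 the order rests on values below log2 5 in at least 1 region. With values raised to log2 5, the gap to the next strain was 1.86 in cortex and 1.84 in accumbens for Wdfy1, 1.88 and 0.45 for Tmem87a, and 1.00 and 0.53 for Hddc3. It was the highest of 27 in both regions for 2 of 55 lower members, Slc35a5 (gaps 0.89 and 0.12) and C1qb (0.14 and 0.20). DBA/2J was the most extreme strain in both regions for no member, a result that rests partly on DBA/2J cortex, the array that C58/J cortex resembled. By the values as deposited, DBA/2J lay within the range of the other 25 in both regions for 45 of 47 higher and 43 of 55 lower members. C57BL/6J did so for 17 and 46. In accumbens alone, the cleaner region, DBA/2J did lie beyond all other strains for more members. It was lowest for Snhg14, at 8.56 against 8.83 in NZW/LacJ, the next lowest, and 1500011B03Rik, at 6.74 against 6.99 in CE/J. Crim1 and 1428137_at were also lowest in DBA/2J, and Dph7 was highest. Pdxdc1, Pnma2, Slc19a2, Tmem267, Zzef1, Zmym1 and 1447206_at were lowest in DBA/2J too, but at levels below log2 5, too dim to be ordered. The placements of Snhg14 and 1500011B03Rik hold for the brightest probe set only. The other probe set was higher in DBA/2J in both regions, by 0.15 and 0.45 for Snhg14 and by 0.78 and 1.79 for 1500011B03Rik.

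**Figure D3:**
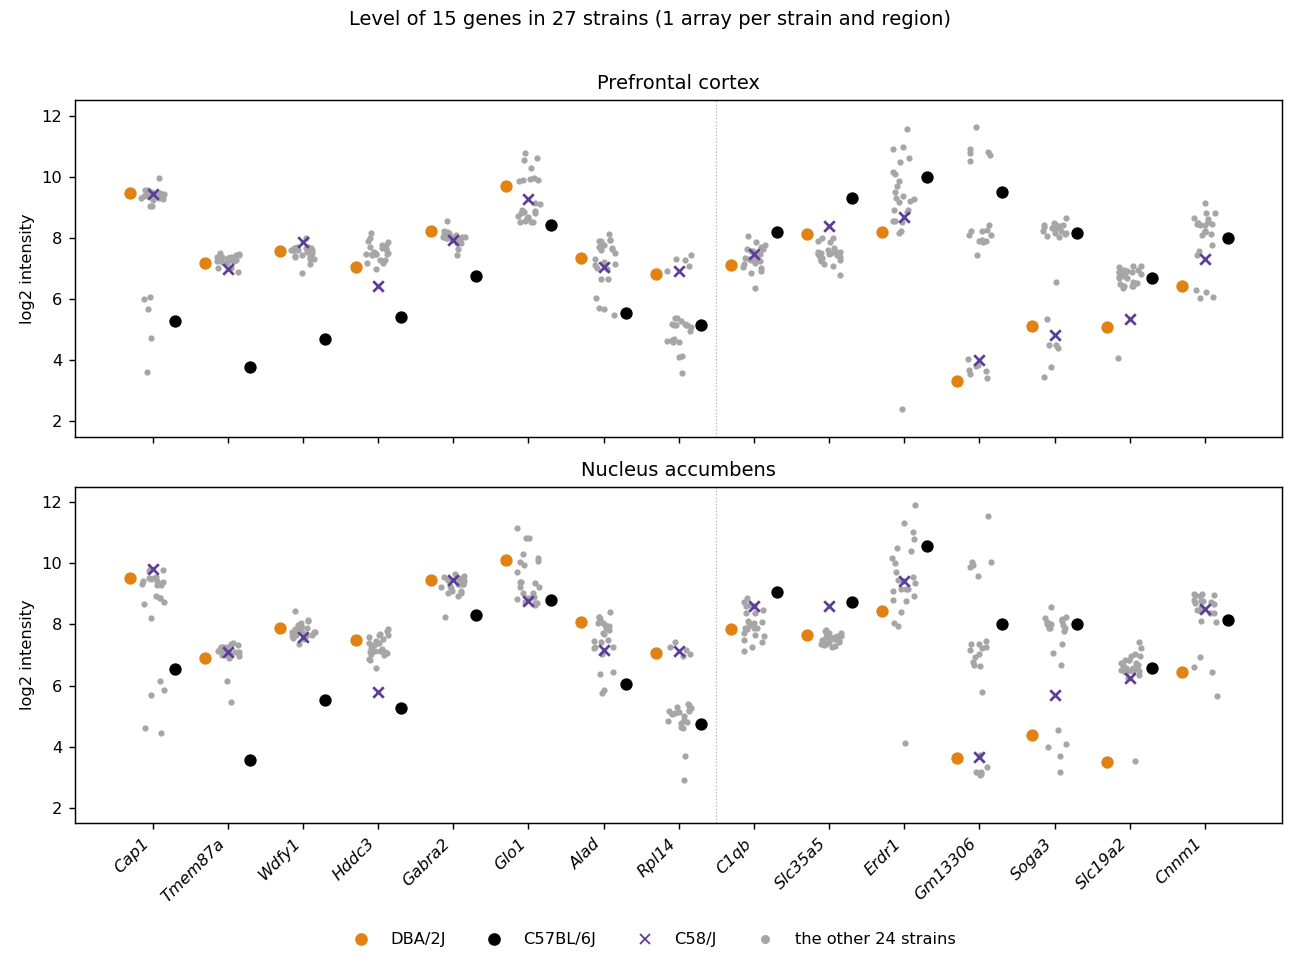
Log2 intensity of 15 member genes in cortex (upper panel) and accumbens (lower panel) for 27 strains, 1 array each: orange DBA/2J, black C57BL/6J, purple crosses C58/J and grey the other 24, with genes higher in DBA/2J left of the dotted line. C57BL/6J stands alone at the bottom for Tmem87a and Wdfy1, while Gm13306 and Soga3 split the strains into low and high groups with DBA/2J among the low ones.

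By the brightest probe set, several members took discrete levels in accumbens. Slc19a2 was at 3.51 in DBA/2J and 3.52 in I/LnJ accumbens, with all other strains at 6.24 or above. Cap1 was at 6.55 or below in accumbens in C57BL/6J and 5 other strains (RIIIS/J, KK/HlJ, NON/LtJ, P/J and AKR/J) and at 8.20 or above in the rest. Phgdh was at 5.19 or below in accumbens in DBA/2J, NOD/LtJ, NZW/LacJ, BALB/cByJ and BTBR T+ tf/J and at 8.30 or above in the others. Cortex did not keep that order, since C57BR/cdJ read 8.72 for Phgdh in accumbens but 5.27 in cortex. The other probe sets of Slc19a2 and Phgdh differed less between DBA/2J and C57BL/6J, as given with these genes.

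As a pair, DBA/2J and C57BL/6J were not unusually far apart. The same rule applied to C57BL/6J against each other strain gave 44 features for C57BR/cdJ, the lowest count, to 172 for BALB/cByJ, with a median of 120.5; the 102 for DBA/2J equalled that for A/J and was exceeded by 21 strains. Against DBA/2J, counts ran from 13 for C58/J to 162 for WSB/EiJ with a median of 103. These pairs share the DBA/2J or the C57BL/6J arrays and are given side by side only.

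C57BR/cdJ and C58/J are relatives of C57BL/6J by pedigree. In accumbens each was nearer DBA/2J on 47 of 102 members; both were on the DBA/2J side for 35, both on the C57BL/6J side for 43, and they were apart for 24. Wdfy1 was low in neither, at 7.66 in C57BR/cdJ and 7.59 in C58/J accumbens against 5.52 in C57BL/6J. For Hddc3, by contrast, C58/J at 5.79 was next to C57BL/6J at 5.26. The strains on the DBA/2J side for the most members in accumbens were I/LnJ (66 of 102), CBA/J (60) and BALB/cByJ (60). That count covers the members only. Across all features DBA/2J accumbens correlated most with CBA/J (0.19), C3H/HeJ (0.16) and 129S1/SvImJ (0.14) accumbens.

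C58/J was on the DBA/2J side for 82 members in cortex and for 47 in accumbens, a gap of 35, whereas the gap of the other 24 strains ran from -5 to 16 with a median of 3. C58/J differed from DBA/2J by at least 1 unit on 51 members in accumbens and on 11 in cortex. It differed from C57BL/6J on 40 in accumbens and 63 in cortex. Pnma2 read 7.18 in C58/J and 3.95 in DBA/2J accumbens but 5.45 and 5.37 in cortex. Zfp40 read 6.59 and 4.87 in accumbens but 4.65 and 4.52 in cortex. In the cortex, then, C58/J sat beside DBA/2J for genes on which accumbens of the same pools lay well apart.

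Features that differed by at least 2 units in accumbens were followed into cortex. Between DBA/2J and C57BL/6J there were 57 of them, with a median ratio of cortex to accumbens difference of 0.73. Between C57BL/6J and C58/J there were 37, with a ratio of 0.74, and between DBA/2J and C58/J there were 45, with a ratio of 0.21. On the lower side some cortex values of DBA/2J stood between the 2 levels seen elsewhere: for Slc19a2 DBA/2J read 5.10 and C58/J 5.35 in cortex, against 4.06 in I/LnJ and 6.68 in C57BL/6J. Accumbens was not free of such values, since Tmem87a read 5.45 in C57BR/cdJ and 6.14 in C3H/HeJ accumbens, between 3.58 in C57BL/6J and 6.89 in DBA/2J, while in cortex they read 7.01 and 7.31. The cause of these placements was not tested. Leaving C58/J out of the limma model gave 126 higher and 94 lower features.

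**Figure D4:**
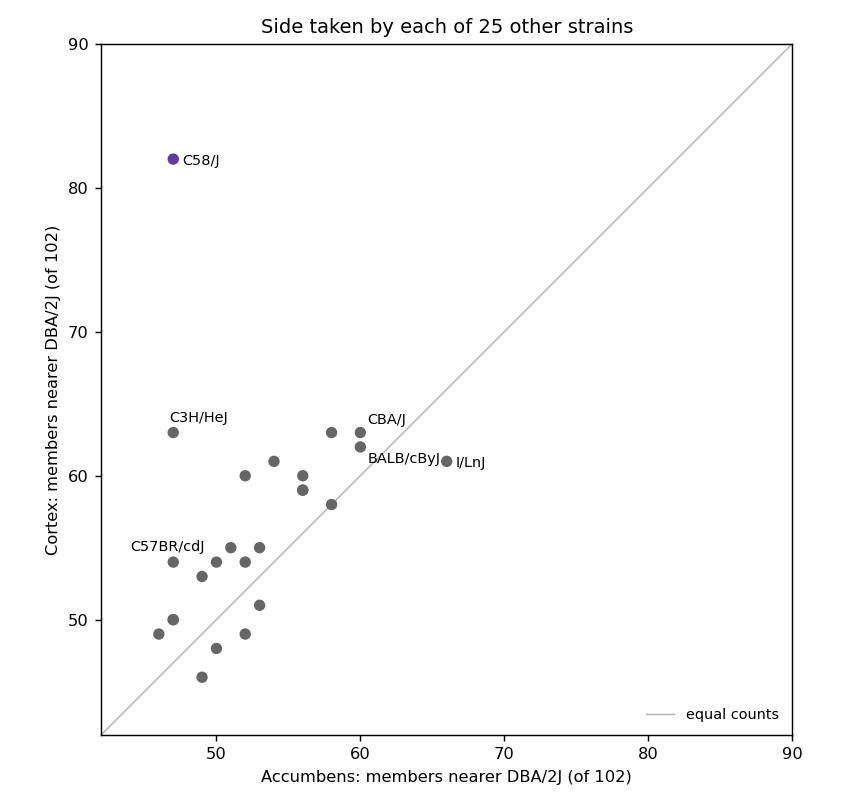
Number of the 102 members on which each of 25 strains was nearer DBA/2J than C57BL/6J, in accumbens (horizontal axis) and in cortex (vertical axis), with the line of equal counts. C58/J lies apart at 47 in accumbens and 82 in cortex, and C3H/HeJ has the next largest gap at 47 and 63.

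Whether the strain difference itself changed between regions was tested on the accumbens minus cortex differences of the 27 strains. No feature passed an adjusted p under 0.05 by limma (0.0% of 10684), the lowest adjusted p was 0.243, and 343 features (3.21%) had an unadjusted p under 0.05, 11 of them members. Without the filter on dim probe sets the same test called 164. In simulated data the test found 26% of features whose strain difference changed by 1 unit between regions and 64% at 2 units, so a change between regions of 1 unit would mostly have been missed in this design.

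Other probe sets of the same gene give a reading that the choice of members did not use. Of 63 named members, 23 had at least 1 other kept probe set, 40 probe sets in all. Of those 40, 12 passed 1 unit in both regions in the member's direction, 17 more had its sign in both, 4 were mixed and 7 had the opposite sign in both. The 2 directions differed in this respect. Every other probe set had the member's sign for 7 of 9 higher genes and for 6 of 14 lower genes, and at least 1 opposite probe set was present for 1 and 6. At least 1 other probe set past 1 unit in both regions was present for 6 of the 9 higher genes and for 3 of the 14 lower ones. Probes lying over sequence that differs between the strains could not be listed, and their part in these differences was not tested.

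Cap1 had a second probe set at 8.76 against 3.78 in cortex and 8.87 against 5.54 in accumbens, as far apart as the first. The 3 other probe sets of Glo1 differed by 0.88 to 1.19 in cortex and 1.22 to 1.62 in accumbens. Both others of Wdfy1, the other one of Gnb1 and 1 of the 2 others of Gabra2 passed 1 unit in both regions. For C1qb, one other differed by -1.51 and -1.54 and one by -0.87 and -1.27. Nudt19 and Sbsn were also matched past 1 unit by their other probe set, at -1.98 and -2.30 and at -2.15 and -2.01. These genes are the members with the most even support across probe sets.

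Kcnj9 was weaker by its other probe set, which differed by 0.10 and 0.39. Pdxdc1 was contradicted by one, which read 5.90 in DBA/2J and 2.45 in C57BL/6J cortex and 7.10 and 2.21 in accumbens, so its direction depended on the probe set. Crim1, 1500011B03Rik, Snhg14 and Pnma2 each had a single other probe set, of opposite sign, with differences up to 1.79 in size. Per3 and Zzef1 had 1 opposite probe set among several. The median over all probe sets of Cnnm1 was 0.05, the reverse of its brightest probe set. For these 8 genes the direction differed between probe sets. Nudt16 and Mboat2 had another probe set near 0 with mixed signs, at -0.09 and 0.09 and at 0.06 and -0.01. Both others of Zfp40 kept its sign but were smaller, at -0.26 and -0.78 and at -0.02 and -0.11, as were those of Phgdh and Slc19a2 given with these genes.

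**Figure D5:**
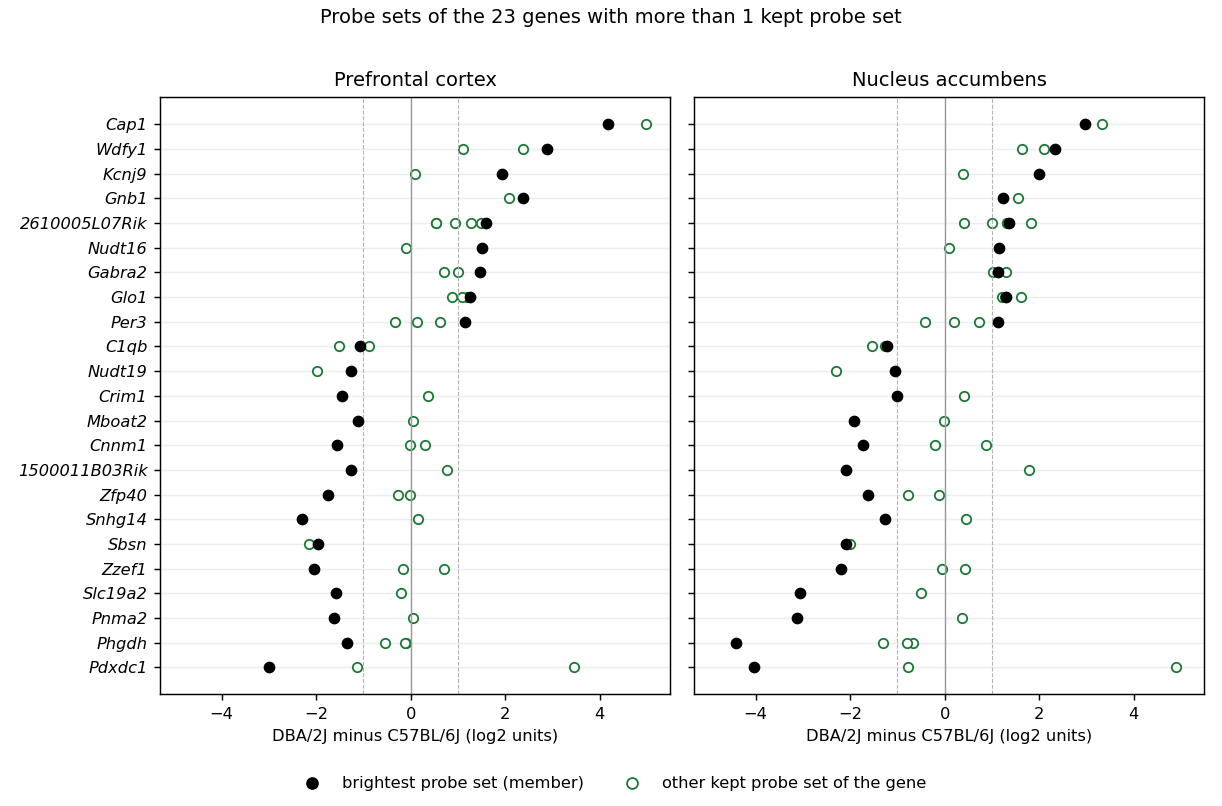
DBA/2J minus C57BL/6J (log2 units) in cortex (left) and accumbens (right) for the 23 members with more than 1 kept probe set; filled points are the brightest probe set and open points the others. Open points follow the filled ones for Cap1, Wdfy1, Gnb1 and Glo1, whereas for most lower members they lie nearer 0 or on the other side, as for Pdxdc1.

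Gene lists chosen for these strains and tissues put the members in context. On the list of known C57BL/6J and DBA/2J variants, 13 of 20 genes were measured and 5 were higher by limma: Glo1, Alad, Kcnj9, Gabra2 and Wdfy1, each also a member. The list was drawn up from genes already known to differ between these strains, so it is not independent evidence of direction. Nnt, a mitochondrial transhydrogenase in which C57BL/6J carries a deletion, read 7.51 and 6.92 in cortex and 8.54 and 7.93 in accumbens (0.60, SE 0.21, adjusted p = 0.17), and C57BL/6J was the lowest of 27 in both regions. Of the others, Cox7a2l differed by 0.23, Mpdz, H2-Ea, Myo5a and H2-D1 by -0.31 to -0.21, and Ide and H2-K1 by -0.12 and -0.11, none past the threshold.

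Apart from Gabra2 and Kcnj9, given above, the transmitter and stress lists gave no call. None of 11 dopamine signalling genes, 4 opioid genes, 17 glutamate receptor genes or 11 stress and neuropeptide Y genes passed by limma. Their medians were -0.19, -0.09, 0.04 and 0.15, against 0.06 over all features. Drd1 and Drd2 differed by -0.03 (SE 0.73) and -0.25 (SE 0.80), with wide errors. The largest of these genes was Crh, corticotropin-releasing hormone, at 7.44 and 6.58 in cortex and 8.39 and 6.87 in accumbens (1.19, SE 0.46, adjusted p = 0.25). Rgs9 led the dopamine list at -0.49 (SE 0.83), Pdyn the opioid list at 0.25 (SE 0.52) and Grin3a the glutamate list at 0.55 (SE 0.43).

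By limma, none of 21 medium spiny neuron, 15 cortical excitatory neuron, 9 interneuron, 12 oligodendrocyte, 12 astrocyte, 9 endothelial, 3 choroid plexus or 10 immediate early genes passed, nor did any of 5 antigen presentation genes, and no blood gene was above the filter. The neuron lists were led by Bcl11b (-0.50, SE 0.47), Nrn1 (0.93, SE 0.67) and Pvalb (1.35, SE 0.94). The oligodendrocyte, astrocyte and endothelial lists were led by Mag (-0.66, SE 0.50), Serpina3n (0.98, SE 0.66) and Tek (1.10, SE 0.38). Ttr (0.89, SE 1.39), Egr1 (-0.29, SE 0.46) and H2-Ea (-0.31, SE 0.22) led the last lists. These errors were all above the median of 0.20 over all features. Where they were widest a difference of 1 unit would hardly have passed, so the lack of a call does not show equal levels. Of 19 lists with measured genes, 6 had a gene past the threshold and 13 had none. List means nevertheless put C57BL/6J at the edge of the strains in places. In accumbens its spiny minus cortical list mean was 5.04, the highest of 27, against 4.64 in DBA/2J (16th from the lowest), and its cortical excitatory mean was 5.12, the lowest, against 5.43 (17th). In cortex its interneuron mean was 8.16, the lowest, against 8.58 (20th). Their part in the members' differences was not tested.

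Apart from the C1q genes, 3 pairs of members were neighbours within 5 listed genes of one another in the reference gene order. Pla2g4e and Tmem87a had 5 genes between them and were both higher in DBA/2J, with C57BL/6J lowest of 27 for each by the values as deposited. 6820431F20Rik and 2610005L07Rik had 3 between them and were both higher. G530011O06Rik and Erdr1 were adjacent and both lower. In each of the 4 pairs the 2 genes went the same way, which was not tested against other neighbouring genes.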

How the data were processed

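The values were the authors' deposited probe set intensities on a linear scale, 1 array per strain and region. Per the submitters' processing notes they came from GCRMA, a method that subtracts a sequence-based background, equalises the arrays' distributions and combines the probes of a set; no version was stated there. Neither scanner files nor probe sequences were used here. The members and gene lists were chosen with earlier results of these data known.

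Of 45015 probe sets, 64 controls were dropped. By the platform annotation, 34880 had 1 symbol, 923 several and 9148 none. Of the symbols, 34677 were looked up by gene identifier and 0 changed. Intensities were turned to log2 without a pseudocount. A probe set was kept if above log2 5 on at least 13 of 54 paired arrays, and a gene took its brightest kept probe set (highest mean over the 54).

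Members are described without a test, since their rule used the same contrast. limma 3.58.1 in R 4.3.3 (lmFit, eBayes, Benjamini-Hochberg) fitted a coefficient per strain plus region over the 54 arrays, and region dependence on the accumbens minus cortex differences, with DBA/2J and C57BL/6J each having a coefficient and the other 25 strains a shared mean. Because there is 1 pool per group, the number of arrays limits the precision. Other steps ran in Python 3.11.15 (pandas 2.3.3, numpy 2.4.6, matplotlib 3.10.9). Leading genes were the 15 named members per direction with the largest smaller regional difference after raising values to log2 5, and the others are named to account for all members. Promoter windows and gene order came from RefSeq (GRCm38.p6).

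Tested on simulated data with 10684 features, the strain contrast recovered 18.0, 82.0, 94.0 and 98.0% of differences of 0.5, 1, 1.5 and 2 log2 units and called 0.136% of unchanged features. The simulated data held no pool effect shared by the regions, so these rates leave out differences between pools. Alternatives covered the filter, normalization, choice of probe set, floor, threshold and the strains included.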

Additional observations from a re-analysis of the deposited data

How the results depend on the processing

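Member counts (47 higher, 55 lower) and strain contrast counts (126 higher, 88 lower) moved by over 1.5 times under these settings. A filter at log2 7 gave 19 and 25 members and contrast counts of 62 and 53, from fewer features tested. Counting every probe set gave 81 and 92 members, and raising values to log2 5 gave 29 and 34. Thresholds of 0.5 and 2 log2 units gave 228 and 172 and then 13 and 13. A rule on accumbens alone, added after the data were seen, gave 154 and 128. An adjusted p under 0.01 left 65 and 57 contrast features. Without MA/MyJ, BALB/cByJ, CE/J, NON/LtJ and WSB/EiJ the contrast had 190 higher and 118 lower features. Region dependence had 0 calls except without a filter, where it had 164. The cause of these moves was not tested beyond the settings' construction.

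Renewed quantile normalization gave 43 and 57 members, with 97 of the 102 kept, and median centring gave 46 and 53, with 99 kept. Without probe sets prone to cross-hybridisation there were 42 and 47. Of 30 leading genes, counting every probe set moved 10 by over 1 SE and reversed 1, Cnnm1 at 0.05. Raising values to log2 5 moved 7, and dropping the cross-hybridising types moved 1, Slc19a2, of the 27 genes still present. Depth is limited by signal over background: 35 of the 102 members were above log2 5 on all 4 arrays.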
